A study of Drosophila melanogaster with 4 samples.

Results

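The regions described here are stretches of H3K36me1 enrichment that appear in the list made for the set of replicates and in neither single-replicate list, called set-only regions below. They were chosen by overlap and length in the region lists. A set-only region is a row of the set list on 2L, 2R, 3L, 3R or X, over 1300 bp long, that shares no base with a region of replicate 1 or of replicate 2. The rule found 1563 such regions among the 8051 regions of the set list. They were 24.5% of the 6368 set regions of that length on these 5 arms, a share that the rule itself fixes. The other set regions of that length were 1772 that overlapped 1 replicate and 3033 that overlapped both.

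Histone H3 can carry methyl groups on lysine 36, and H3K36me1 is the form with a single methyl group. In Drosophila the trimethylated form is laid down by Set2 along the bodies of transcribed genes, and Ash1 and NSD are enzymes that make lower forms. In fly cell lines H3K36me1 has been found over introns and other open chromatin of active genes. Domains of such a mark are often broad, so a list of enriched regions can hold both long domains and short separate regions beside them.

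The data come from 2 chromatin immunoprecipitations with an antibody against H3K36me1 and 2 input samples, sheared chromatin without the antibody, all from whole embryos of the wild-type strain Oregon-R-modENCODE aged 14 to 16 hours. Whole embryos mix all tissues, so a region present in few cells and one weakly marked in many cannot be told apart. Whether the replicates were separate embryo collections is not stated in the labels. Each region carries a score written by the authors, whose scale is not stated, and the depth behind it is unknown. The scores used below are those of the single set list, so they have no replicate error.

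Set-only regions were short and lay within a narrow band of scores. Their median length was 1647 bp, with quartiles of 1455 and 1884 bp, and 82.6% were under 2000 bp. Set regions found in 1 replicate had a median of 1992 bp, and those found in both had 4169 bp. All set-only regions together covered 2.77 Mb, or 9.37% of the length of the set regions considered. Their median score was 0.398, against 0.421 for regions in 1 replicate and 0.617 for regions in both. A score of at most 0.5 was held by 1406 of the 1563, and 98.5% scored below the median of the regions found in both replicates. Length and overlap chose the members, so these values describe them and test nothing.

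The name "weak" held clearly against long regions and hardly against short ones. Among regions under 2000 bp, the median score was 0.388 for the 1291 set-only regions, 0.372 for the 901 found in 1 replicate and 0.371 for the 188 found in both. Up to 1500 bp, set-only regions had 0.378, regions in 1 replicate 0.344 and regions in both 0.398, so set-only regions lay between the others. In that class 499 of 636 regions were set-only, so the other 2 medians rest on few regions. From over 1500 to 2000 bp, with 792 set-only regions, these scored highest, at 0.394 against 0.376 and 0.372. From over 2000 to 3000 bp the order turned, with 0.436 for set-only regions, 0.464 for regions in 1 replicate and 0.524 for regions in both. Above 3000 bp the medians were 0.442, 0.472 and 0.694. What changed most with length was the share of set regions that no replicate held. It was 78.5% up to 1500 bp, 45.3% from there to 2000 bp, 14.7% from there to 3000 bp and 1.92% above 3000 bp, where 47 of 2454 were set-only. Neither replicate list holds a region of up to 1300 bp, while the set list does. A short set region could thus overlap a replicate only where that replicate's own region was over 1300 bp long. How much of the fall in this share comes from that floor was not tested. Score followed length loosely among set-only regions, with a Spearman correlation across regions of 0.244, against 0.691 among regions found in both. The regions share 1 list and 1 pair of samples, so these correlations carry no p-value.

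**Figure D1:**
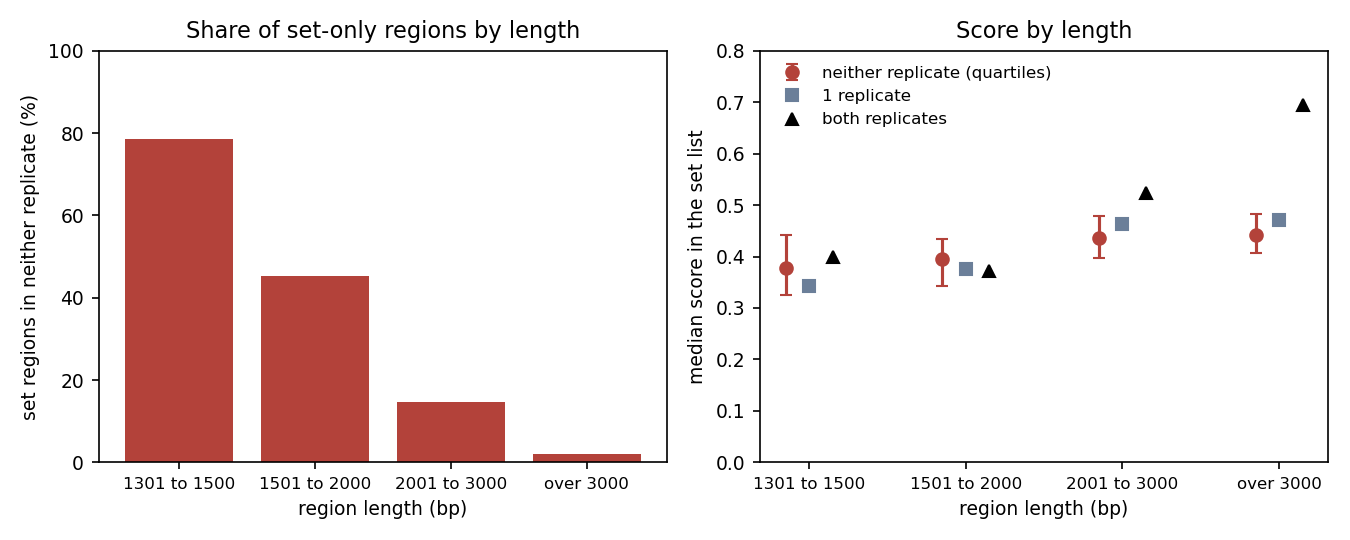
Left, share of the set regions of each length class (bp) that overlapped neither replicate, in percent. Right, median score in the set list by length class for regions in neither replicate (circles, bars are quartiles), in 1 replicate (squares) and in both (triangles). The share falls from 78.5% to 1.92%, and the medians of the 3 kinds lie close together below 2000 bp. The replicate lists hold no region of up to 1300 bp, and the part of this floor in the fall was not tested.

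The limits of the rule cut through like regions. The 257 set-only regions of up to 1400 bp had a median score of 0.383, and the 308 regions of over 1200 and up to 1300 bp that also overlapped no replicate had 0.393. Farther below the limit scores were higher. All 1265 regions of up to 1300 bp in neither replicate had a median of 0.438, against 0.398 for set-only regions. The 129 regions of up to 1300 bp that overlapped a replicate had 0.411. The shortest 3 set-only regions, equal in length, lay on 3R from 8819463 to 8820763 with a score of 0.439, on X from 8167409 to 8168709 with 0.340 and on X from 10412442 to 10413742 with 0.517. At 1300 bp lay 4 regions that the rule left out, among them one on 2L from 22805165 to 22806464 with 0.792, one on 2R from 13335808 to 13337107 with 0.372 and one on 3L from 8515376 to 8516675 with 0.296. Overlap was as fine a limit. The set-only region nearest to a replicate region lay 4 bp from it and 29 lay within 100 bp, while 8 regions were left out for an overlap of under 100 bp. The smallest such overlap was 5 bp, on X from 19614131 to 19616031, with a score of 0.602.

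Most set-only regions lay near a region of a replicate, and few lay at the flank of a strong domain. A strong domain is here a merged replicate region of at least 10 kb to which both replicates contribute, and 474 lie on the 5 arms among 5489 merged replicate regions. The median gap to the nearest replicate region was 3061 bp, and 1001 set-only regions (64.0%) had one within 5 kb. The median gap to the nearest strong domain was 83833 bp, and 981 (62.8%) lay more than 50 kb from one. At the flank of a strong domain, within 5 kb of its edge, lay 89 set-only regions (5.69%). Only 84 of the 474 strong domains had a set-only region so near, and 1 set-only region had a strong domain within 5 kb on both sides. At the other end, 298 (19.1%) had no replicate region within 10 kb and are called isolated.

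These shares were set against circular shifts. All set-only regions of an arm were moved together by 1 random offset, 1000 times, and shifted regions that landed on a replicate region were dropped, since set-only regions cannot overlap one. The flank share was 5.69%, against a mean of 2.34% after shifting and a central 95% range of 1.48% to 3.31%, so it was 2.43 times the shifted mean (two-sided permutation p = 0.002, the smallest that 1000 shifts can give). The isolated share was 19.1%, against 61.1% after shifting with a range of 57.4% to 64.2%, or 0.312 times the shifted mean (two-sided permutation p = 0.002). A replicate region within 5 kb on both sides was found for 295 set-only regions (18.9%), against 6.11% after shifting, and on 1 side for 706 (45.2%), against 19.5% (two-sided permutation p = 0.002 for each). Without replicate 1, the flank share of the regions then chosen was 3.73%, against 1.78% after shifting, and the isolated share 29.0%, against 65.9%. The direction was the same on all 5 arms. The flank share ran from 3.91% on 2L to 6.91% on 3R, against shifted means of 2.06% to 2.77%, and the isolated share from 16.3% on 2R to 23.1% on 2L, against 55.8% to 64.0%. Shifts describe how these lists lie on the arms, and the variation from 1 embryo collection to another is not in them. The lists share the same samples, and stretches over 100 kb make up 41.6% of the sequence where shifted regions fall. Low isolated shares, 13.2% and 9.33%, were also found for set regions in 1 replicate and in both, which were not shifted. The departure from the shifts is therefore not shown to be particular to set-only regions.

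The nearness graded with distance. Within 1 kb of a replicate region lay 353 set-only regions (22.6%), against 7.51% after shifting, and from 1 to 2 kb 218 (13.9%), against 5.86%. From 5 to 10 kb the values were 16.9% and 13.3%. Beyond that set-only regions were fewer than after shifting. From 20 to 50 kb the values were 6.46% and 25.4%, and over 50 kb 1.98%, or 31 regions, and 18.4%. For strong domains the values within 1 kb were 1.60% and 0.553%, and over 50 kb 62.8% and 75.3%.

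**Figure D2:**
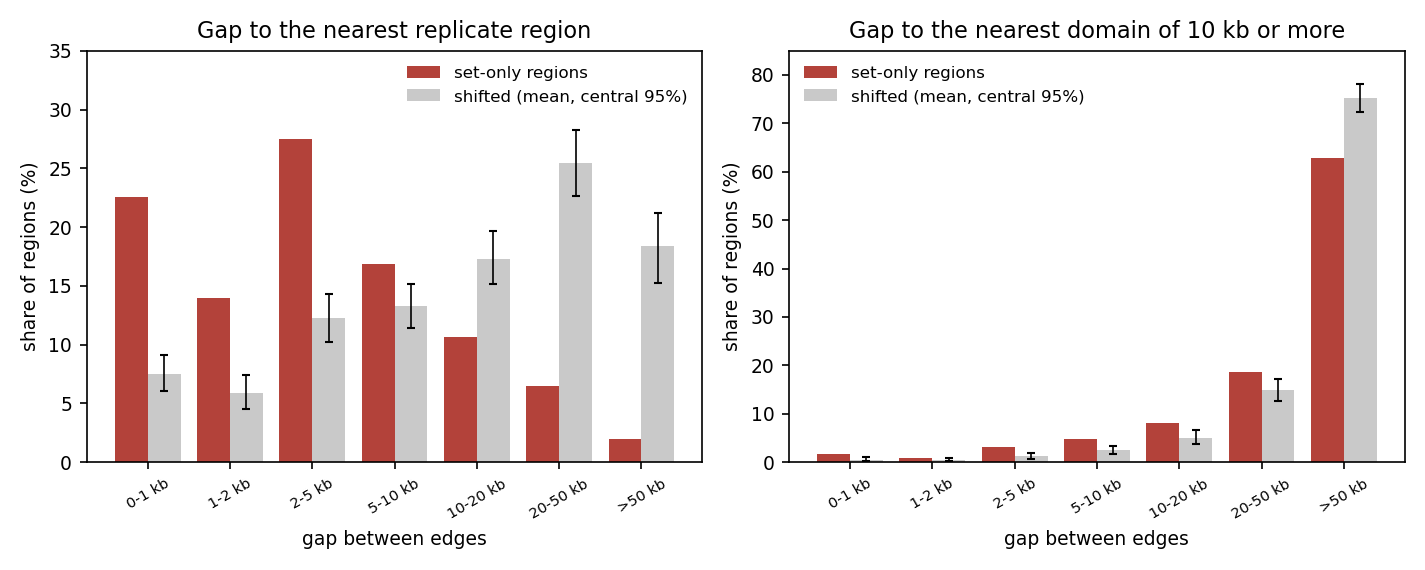
Share of regions, in percent, by the gap between a region's edge and the nearest replicate region (left) or the nearest domain of 10 kb or more (right). Dark bars are the 1563 set-only regions, light bars the mean of 1000 circular shifts within arms, with lines for the central 95% of the shifts. Set-only regions exceed the shifts up to 10 kb from a replicate region and fall below them beyond, while 62.8% lie over 50 kb from a strong domain.

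The neighbours of set-only regions were of short and long kinds in about the proportion in which shifted regions met them. This comparison was added after the values above had been seen. Of the 1001 set-only regions within 5 kb of any replicate region, 8.89% were within 5 kb of a strong domain, against 9.14% of the shifted regions that came equally near to a replicate region (two-sided permutation p = 0.89). The nearest replicate region of these 1001 had a median length of 2060 bp, against 2092 bp after shifting (two-sided permutation p = 0.71, range of shifts 1991 to 2244 bp). It was under 2000 bp long for 45.9%, against 45.0%. It belonged to both replicates for 53.2%, against 54.2% with a range of 48.4% to 60.1%. It was itself a strong domain for 6.19%, against 6.72% with a wide range of 3.95% to 9.75%. A difference smaller than these ranges could not be detected. By value, the excess at strong domains was no larger than that beside replicate regions of any length.

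In each of 3 measures of placement, set-only regions lay at one end, regions found in both replicates at the other, and regions found in 1 replicate between them. Within 5 kb of a strong domain were 5.69% of set-only regions, 6.17% of those found in 1 replicate and 10.9% of those found in both, the last 2 counted outside strong domains. No other replicate region stood within 10 kb for 19.1% of set-only regions, 13.2% of regions in 1 replicate and 9.33% of regions in both. The median gap to the nearest other replicate region was 3061 bp for set-only regions, 2585 bp for those in 1 replicate and 1820 bp for those in both. The flank shares of set-only regions and of regions in 1 replicate lay close together. The classes also differed in length, with medians of 1647, 1992 and 4169 bp, and were not matched for it. These classes were not tested against each other, since they are parts of 1 list and were split by the same overlaps.

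The 5 set-only regions nearest to a strong domain are the closest cases, not typical ones. Of the 89 at a flank, 50 lay 2 to 5 kb from the domain. The nearest, on 3L from 15526404 to 15527764, scored 0.319 and lay 180 bp beyond a domain of 10.5 kb that ended at 15526223 and scored 0.976 in replicate 1 and 0.974 in replicate 2. One on 2R from 7907745 to 7910501, 2757 bp long, scored 0.428 and lay 274 bp from a domain of 11.0 kb, with another replicate region 75 bp away. One on X from 9029489 to 9032303 scored 0.465 and lay 281 bp from a domain of 14.0 kb. The fourth, on 2L from 3863065 to 3864785, scored 0.442 and lay 376 bp from a domain of 10.6 kb. These 4 were 1361 to 2815 bp long, and their scores lay on both sides of the class median of 0.398. The remaining one, on 3R from 16095654 to 16097645, lay 270 bp from a domain of 22.4 kb and differed from them in score, which at 2.84 was the highest of all set-only regions.

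Scores differed little by place. Set-only regions at the flank of a strong domain had a median score of 0.409 (quartiles 0.357 and 0.453, 89 regions). Those beside another replicate region within 5 kb had 0.396 (0.339 and 0.446, 912 regions), and isolated ones had 0.407 (0.360 and 0.458, 298 regions). The median length was 1633, 1664.5 and 1650.5 bp in these places. Over 7 classes of gap to the nearest replicate region the median score stayed between 0.386 and 0.412.

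Set-only regions were densest in stretches of middle length between replicate regions. Where neighbouring replicate regions stood 10 to 20 kb apart, there were 45.7 set-only regions per Mb of the stretches between them, and 5 to 10 kb apart 41.5 per Mb. Stretches of 20 to 50 kb had 24.1 per Mb, those of 50 to 100 kb 12.8 and those over 100 kb 5.38. On the short side, stretches of 2 to 5 kb had 26.6 per Mb, with 102 set-only regions, and those of up to 2 kb held 3 in 1.55 Mb. Short stretches have little room for a region of over 1300 bp that may overlap neither edge. The densities were not corrected for this room. Stretches over 100 kb made up 41.6% of the sequence outside replicate regions and held 13.5% of the set-only regions. Of the 228 such stretches, 119 (52.2%) held at least 1, a share close to the 47.3% of the 564 stretches of 10 to 20 kb.

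**Figure D3:**
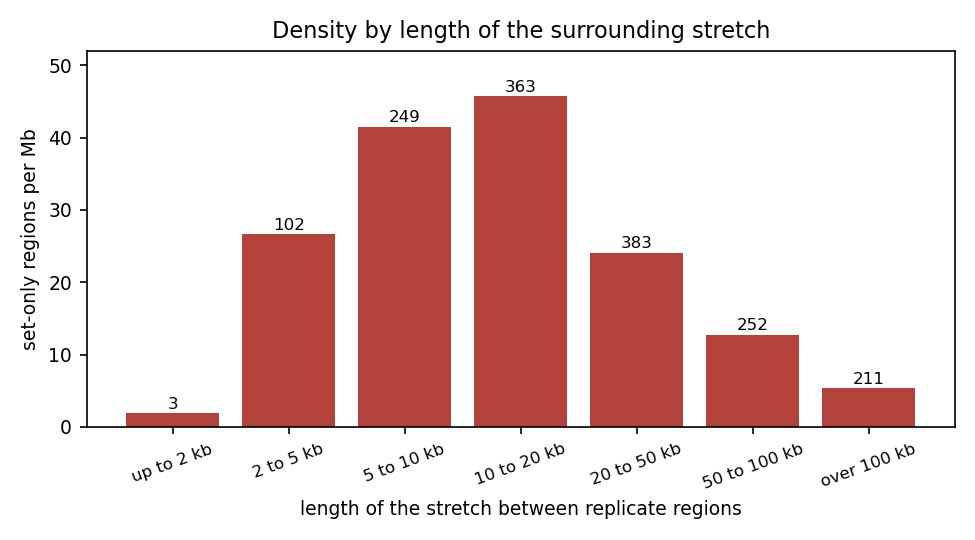
Set-only regions per Mb of sequence between replicate regions, by the length of the stretch between neighbouring replicate regions. The number above each bar counts the set-only regions in that class, and density is highest, at 45.7 per Mb, in stretches of 10 to 20 kb. Densities are not corrected for the smaller room in short stretches.

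A stretch usually held a single set-only region. Of the 1119 stretches with any, 808 held 1, 211 held 2 and 100 held 3 or more, and the most was 6. In one stretch with 6, on 2R near the end of the arm away from the centromere, the regions lay between 20994647 and 21076076. They were 1413 to 1850 bp long and scored 0.355 to 0.440. In the other stretch with 6, also on 2R, the regions lay between 3473340 and 3569418, with scores of 0.334 to 0.442. In both, the regions covered 9961 and 11014 bp of spans of 81.4 and 96.1 kb, so they were scattered. Another 5 stretches held 5 each. On X, 5 regions lay within 12.7 kb between 11474703 and 11487425, with scores of 0.367 to 0.715 and a median of 0.651. The 5 regions of the remaining stretches, on 3R in 2 cases, on 2L and on 3L, spanned 64.8 to 148.2 kb, with median scores of 0.367 to 0.496. The run on X was thus the tightest of these 7 and had the highest median score.

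Isolated regions were often isolated from replicate regions and not from other set regions. Of the 298, 198 had another region of the set list within 10 kb, and 100 set-only regions (6.40% of all) had neither. The region farthest from any replicate region lay on 3L from 2112956 to 2114476, with a score of 0.505 and a gap of 143.9 kb. Its nearest set region, at 25.4 kb, was a second set-only region among the 5 farthest, on 3L from 2085922 to 2087508, with a score of 0.496. Another on 3L, from 4830047 to 4831520, scored 0.492 and had nothing in any list within 131.9 kb. On 3R, a region from 23259214 to 23262365 was 3152 bp long, scored 0.442 and had no region of any list within 115.7 kb. The last of the 5, on 3R from 15410859 to 15412258, scored 0.364 and had another set region at 3.45 kb. Of these 5, 4 scored above the median of set-only regions and 1 below it.

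A few set-only regions had scores far above the rest. Above 1 lay 5 regions, from 1.61 to 2.84, and none lay between 0.908 and 1.61. The region of 2.84 beside the 3R domain scored above every region found in both replicates, whose highest was 2.30, in the same list. The domain at its side reached 0.984 in the list of replicate 1 and 1.12 in that of replicate 2, which are not set against the score of the set because the scale may differ between lists. The second, on 2R from 5039598 to 5041611, scored 2.18 and lay 3.95 kb from a replicate region. A region on 3L from 18040934 to 18042553 scored 2.01 and was 27.9 kb from the nearest region of any list. The others were on 3R from 17128241 to 17131997, with 1.92, and on 3R from 100115 to 102052, with 1.61. They were 1620 to 3757 bp long, and 4 of the 5 were longer than the upper quartile of set-only regions, 1884 bp. Among the 1265 regions of up to 1300 bp in neither replicate, 22 scored above 1, with a highest of 3.21, against 1 of the 1772 regions of over 1300 bp found in 1 replicate and 387 of the 3033 found in both.

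Of the next 5 scores, from 0.857 to 0.908, 4 belonged to neighbours. On 3L near the centromere, a region from 23664843 to 23666629 scored 0.886, and 170 bp away one from 23666800 to 23668108 scored 0.908. On 2L, a region from 21464511 to 21466025 scored 0.857, and 13.1 kb away one from 21479161 to 21481148 scored 0.895, at 95.8 and 92.3 kb from any replicate region. The fifth, on X from 13073264 to 13075421, scored 0.90.

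The longest set-only regions had ordinary scores. The longest, on 2L from 19300264 to 19305666, was 5403 bp long and scored 0.404, with a replicate region 732 bp away and a strong domain 2390 bp away. A region of 4605 bp on 3L from 14171870 to 14176474 scored 0.396 and lay 768 bp from a replicate region. The next was 4479 bp long, on 3R from 5784678 to 5789156, with a score of 0.469. One of 4421 bp on 3L from 21290181 to 21294601 scored 0.378, and one of 4306 bp on 2R from 7332852 to 7337157 scored 0.364. All 5 had a replicate region within 3.14 kb, so none of the longest was isolated.

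Set-only regions were somewhat denser on X, and they scored higher there. The X held 334, or 14.9 per Mb, against 12.7 per Mb on the autosomal arms. Among these, 2R had 14.2, 3L 12.8, 2L 12.2 and 3R 11.9. Set-only regions were 26.9% of the 1241 set regions of over 1300 bp on X, and 23.9% to 24.0% on each autosomal arm. Their density on X was 1.17 times that on the autosomal arms, with a 95% Wilson interval of 1.04 to 1.32 that covers counting error only and treats regions as independent. The value of X lay just above that of 2R, so it stood barely outside the spread among autosomal arms. The median score was 0.459 on X, against 0.386 on the autosomal arms, which ran from 0.381 on 2L to 0.395 on 2R. The difference of 0.073 was far larger than the SD of the 4 autosomal medians, 0.0062. It was not particular to set-only regions, since regions in 1 replicate differed by 0.073 and regions in both by 0.092. All these scores come from the same list, in which the X stood higher for every class. The labels give no sex, and male flies carry a single X, so its copy number in these embryos is not known here.

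**Figure D4:**
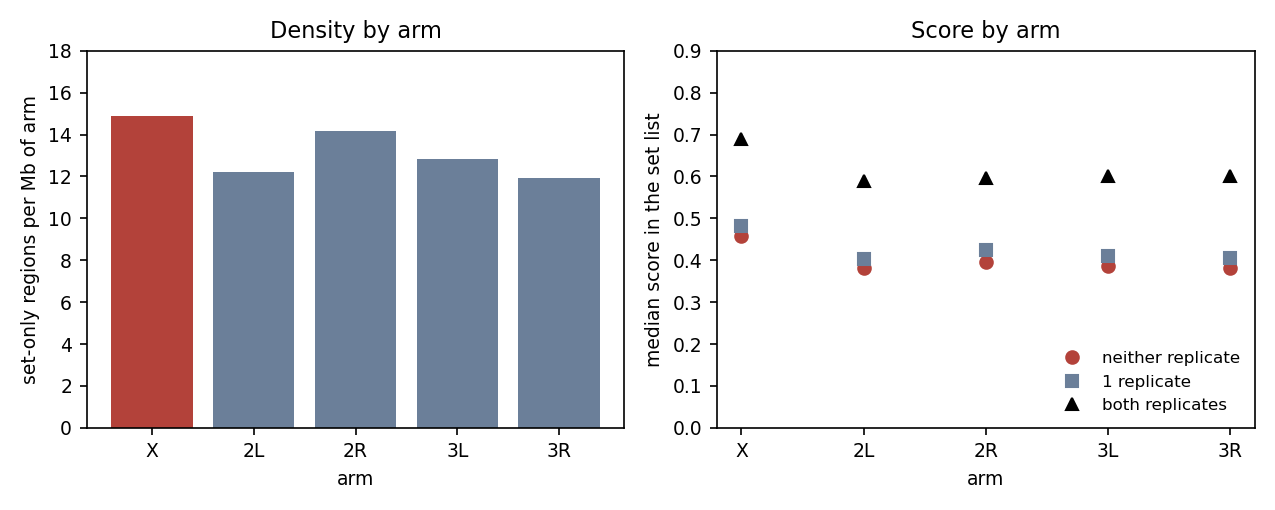
Left, set-only regions per Mb of each arm, X first. Right, median score in the set list by arm for regions in neither replicate (circles), in 1 replicate (squares) and in both (triangles). The X is the highest in both panels, at 14.9 per Mb and a median of 0.459 for set-only regions.

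Along the arms, set-only regions were present everywhere. Each of the 117 full windows of 1 Mb held between 4 and 31, with a median of 12. The highest numbers, 31 each, were in the windows on 2R from 3000001 to 4000000 and on 3R from 5000001 to 6000000, and the lowest, 4, on 3R from 24000001 to 25000000. Across windows the number followed that of replicate regions more than the sequence they covered, with Spearman correlations of 0.499 and 0.178. Set-only regions cannot lie in covered sequence, so more coverage leaves less room for them, and the correlations were not corrected for this. Windows share the same lists and neighbouring sequence, so these values are a description. In the tenth of each arm nearest the centromere there were 11.5 per Mb, against 13.3 in the rest. This inner part was lower on X, 2L and 3L, nearly level on 2R, with 13.7 against 14.2, and higher on 3R, with 12.5 against 11.9.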

How the data were processed

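The submitters' processing notes name Bowtie 0.12.7, a read aligner. The authors deposited 1 list of enriched regions for each H3K36me1 replicate and 1 for the set of replicates, with a score for each region, on FlyBase release 5 per the file headers. How regions were called and the set was formed, and what the score means, is not stated in the sources read here. The lists hold 5434, 4523 and 8051 regions, and the shortest is 1301 bp in both replicates and 1001 bp in the set.

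Regions count from 1 with both ends included, and any shared base is an overlap. Overlapping regions of the replicates were merged to measure gaps. Gaps run from edge to edge. Shares were compared with 1000 circular shifts within each arm, two-sided at 0.05. The code for the flank share was also run on simulated regions placed 1 by 1, with fewer shifts. The isolated share was not part of that run, which is not used as support here. The members, comparisons and regions named were chosen with earlier results of these data known. Named were the 10 highest scores, the 5 longest, the 5 farthest from a replicate region, the 5 nearest to a strong domain, the 3 largest runs with those tied to the third, and those at the length limit. A gene table on hand follows genome release 6 and was not applied, so regions carry no gene names or sequences and the planned description of genes was not run. The replicates of 1 condition allow no test across samples. The software was matplotlib 3.10.9, pandas 2.3.3, SciPy 1.17.1, NumPy 2.4.6 and Python 3.11.15.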

Additional observations from a re-analysis of the deposited data

Results flagged for a closer look

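Regions of the same kind also occurred in sequence that the comparisons above do not use. Outside the 5 arms, 60 of 202 set regions of over 1300 bp overlapped neither replicate, with a median score of 0.403. Chromosome 4 held 18 of these among its 106 regions. The 6 heterochromatic scaffolds held 36 among 83, or 43.4%, and the unplaced scaffold U held 6 among 13.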

How the results depend on the processing

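Alternatives gave 49 values, of which 5 were judged to have moved. Counts were judged at over 1.5 times, the X density ratio by its 95% Wilson interval and score differences by the spread given below. The shares set against shifts, in the 15, 12 and 7 settings below, were judged only by direction and threshold. A change in the size of those shares was thus not counted. The number of set-only regions was 1563, and it was 2828 with no minimum length and 272 with a minimum of 2000 bp. It ranged from 1951 without replicate 2 to 2947 without replicate 1, since fewer regions are then removed. The flank share stayed above, and the isolated share below, that of the shifts in all 15 and 12 settings run for them, from 2.43% to 18.6% and from 6.40% to 36%. Without replicate 1 both shares moved by over 1.5 times, to 3.73% and 29.0%, and so did some settings of distance and domain length. Some settings change only the shifts. Among set-only regions near a replicate region, the share also near a strong domain did not pass the threshold in any of 7 settings. All 7 were added after the data were examined, as were shifts of 50 to 500 kb, leaving out scores above 1 and leaving out the X. The difference in median score between flank and isolated regions was 0.0024, and it was -0.0125 with no minimum length and from -0.0020 to 0.0101 with either replicate left out, so no direction is given. The spread used there was the SD of the autosomal arm medians. No paired analysis was possible because only the H3K36me1 replicates have lists, which leaves no second group. The depth is unknown, so its part in which regions a replicate held was not tested.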
